A study of Mus musculus with 23 samples.

Results

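The genes for 3 synapsins (*Syn1*, *Syn2*, *Syn3*) and 7 proteins of the synaptic vesicle membrane (*Syp*, *Synpr*, *Syngr1*, *Syngr3*, *Sv2a*, *Sv2b*, *Sv2c*) were followed in primary hippocampal neurons with and without *Nedd8*. These 10 genes were listed by name, with earlier results of these data known, and were found by their Ensembl identifiers among the 56941 genes in the count tables. All 10 passed the filter on low counts, as did 14488 genes in all.

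RNA was sequenced from cultures of P0 hippocampi of homozygous NEDD8cKO mice, in which loxP sites flank part of *Nedd8*, so that every group shared this genotype. At day 1 in vitro the cells received a lentivirus that expressed either red fluorescent protein (RFP) or the CRE recombinase tagged with RFP (CRE), each driven by a Synapsin1 promoter and thus dependent on cells that use this promoter. The labels put the RNA extraction after 12 days in culture, and the methods give 1 day more. There were 12 CRE and 11 RFP libraries. The first number in their names (1, 2 or 3) was read here as the culture, which neither labels nor methods state. The comparison rested on the 11 CRE and 10 RFP libraries that make up the count table of the study, all but CRE 3-3 and RFP 3-2. A dish held the cells of about a pair of hippocampi, glia as well as neurons, and cultures without virus are not analysed here.

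Synapsins are phosphoproteins on the cytoplasmic face of synaptic vesicles that hold vesicles in the reserve cluster behind the active zone and release them when they are phosphorylated. The physins and gyrins are vesicle proteins that span the membrane several times, with synaptophysin (*Syp*) as the classic marker of presynaptic terminals. The SV2 proteins resemble sugar transporters, take part in the priming of vesicles and the handling of synaptotagmin, and serve as binding sites for botulinum toxin A and, in the case of SV2A, for the antiepileptic drug levetiracetam.

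Over the 21 libraries, the depth in assigned counts was 7430401 to 13345552 with CRE and 9833872 to 17112815 with RFP. *Nedd8*, whose loss checks the labels, lay between 5.92 and 18.0 CPM (counts relative to the TMM library size) in the CRE libraries and between 44.1 and 76.0 CPM in the RFP libraries. A group of 4 libraries stood apart. CRE 3-3 held only 1546796 counts, 24.2% of the counts of RFP 3-2 fell on the ribosomal gene *Rn18s-rs5*, and the levels of genes in CRE 1-3, CRE 3-3 and RFP 2-4 rose with their GC content (Spearman correlation across genes 0.74, 0.55 and 0.42, against -0.31 to 0.11 in the others). CRE 1-3 and RFP 2-4 are among the 21 libraries, so values without the 4 libraries, and with all 23, are given beside the results that they move. Correlations between genes are the exception.

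Of the 10 genes, 7 were lower in CRE than in RFP libraries, 1 was higher, and 2 did not pass the test. Each gene was tested with the quasi-likelihood F test of edgeR, adjusted by the Benjamini-Hochberg method for 14488 genes and given as edgeR adjusted p, and was called at a value under 0.05. Among all genes tested, 13.8% were called lower and 16.4% higher. The median log2 fold change of the 10 genes was -0.51, against 0.02 over all genes. With counts summed per culture, the same 7 genes were called lower (edgeR adjusted p between 7.75e-05 and 0.0453) and 0 higher. In that fit 2032 of 18417 genes were called lower and 2166 higher. Log2 fold changes of the called genes were modest, from 0.33 to 1.06 in size. Past an absolute log2 fold change of 1.3 with a -log10 p above 6, edgeR put 0 of the 10. Of all genes, 0.538% were lower and 1.95% higher past these thresholds, and with the adjusted p in place of the p it was again 0 of the 10, and 0.297% and 1.09% of all genes. No alternative, DESeq2 and limma-voom included, took a log2 fold change of the 10 beyond 1.3, the extremes being -1.18 (*Sv2b*) and 1.14 (*Sv2c*). Every CRE library lay below every RFP library for 1 of the 10 genes, *Syn1*, and for 2.08% of all genes. None of the 10 had every CRE library above every RFP library, which held for 2.64% of all genes.

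**Figure D1:**
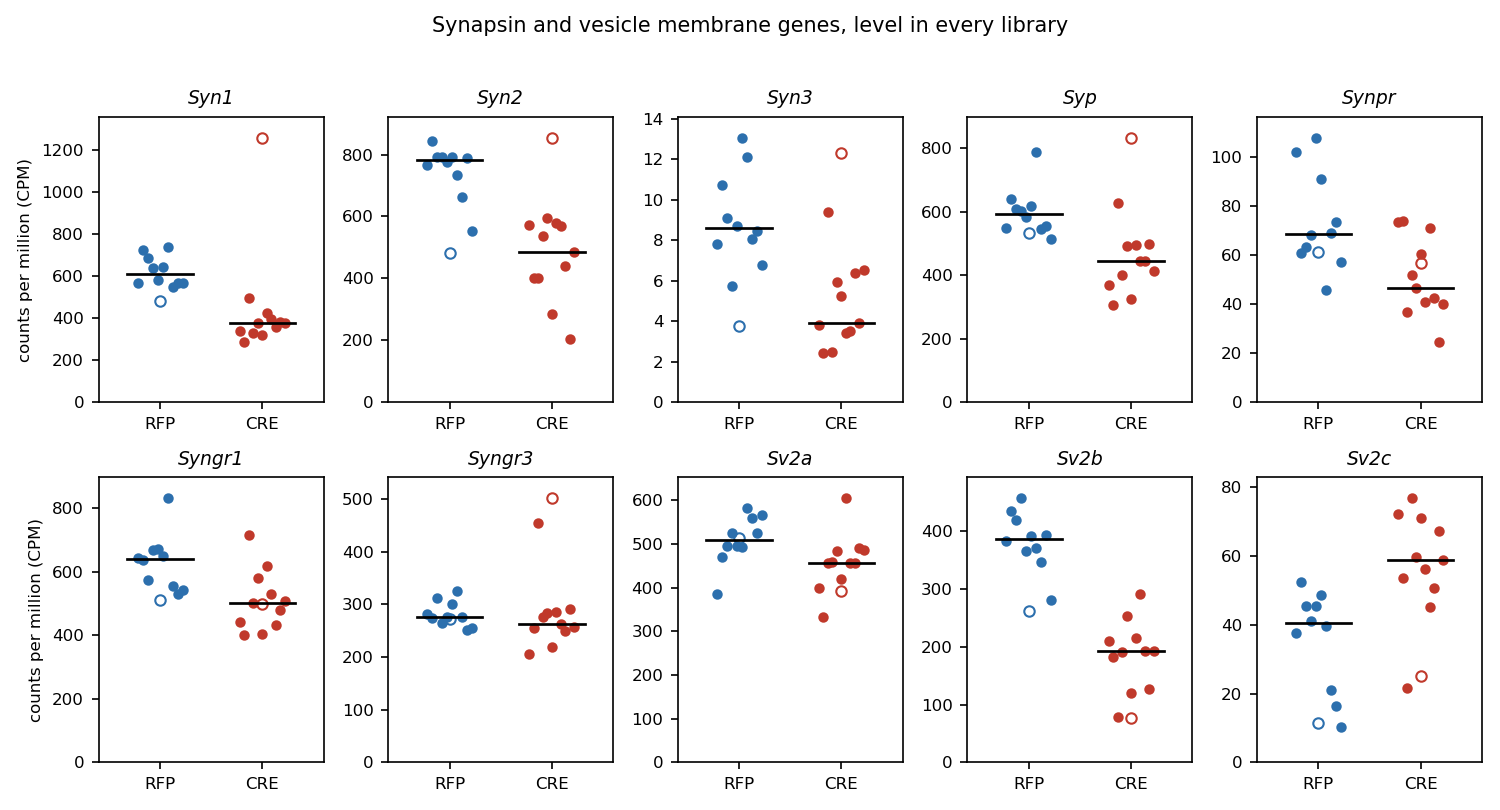
Level in CPM (vertical axes, linear from 0) of each gene in every RFP (blue) and CRE (red) library, with the median of the 21 compared libraries as a black line and the 2 libraries left out of the comparison, RFP 3-2 and CRE 3-3, as open circles. The red points of *Syn1* all lie below the blue ones except for the open circle at 1256 CPM, those of *Sv2b* lie mostly below, and those of *Sv2c* mostly above.

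*Syn1*, the synapsin with the most counts per kilobase of merged exons in both groups, fell in CRE libraries without any overlap. It is encoded on the minus strand of chromosome X from 20726750 to 20787397 (GRCm39, ENSMUSG00000037217). RFP libraries ran from 547 to 738 CPM (median 609, n = 10) and CRE libraries from 288 to 494 CPM (median 375, n = 11). Its log2 fold change was -0.77 (standard error 0.10, 95% interval -0.98 to -0.57, edgeR adjusted p = 1.23e-06), a change of -41.5%. The left out library CRE 3-3 stood far from the others at 1256 CPM, and including it and RFP 3-2 gave -0.47 (edgeR adjusted p = 0.0627). Without the 4 libraries it was -0.79 (edgeR adjusted p = 3.69e-09). Since bulk RNA was measured, fewer cells that express a gene and less RNA of it per cell cannot be told apart, here and below.

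The 250 bases before the start of the canonical *Syn1* transcript are shown because the virus used a promoter of the same name and because this was the one gene of the 10 with a core motif of the factor NRF1 there. The sequence was read from GRCm39 and runs 5′ to 3′ on the strand of the gene, and capitals mark the matches to the motifs searched (an Sp1 motif on the opposite strand, then 2 overlapping NRF1 cores on the 2 strands next to the start).
Syn1 chrX:20787398-20787647 (minus): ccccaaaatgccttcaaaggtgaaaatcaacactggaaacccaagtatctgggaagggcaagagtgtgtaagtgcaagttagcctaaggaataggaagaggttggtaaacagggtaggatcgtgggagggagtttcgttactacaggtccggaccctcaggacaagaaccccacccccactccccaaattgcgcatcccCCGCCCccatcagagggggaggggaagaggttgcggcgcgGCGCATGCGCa

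*Syn2*, on chromosome 6 (115111825 to 115261708, plus strand, ENSMUSG00000009394), fell by a similar amount with some overlap. Its RFP libraries spanned 553 to 844 CPM (median 782) and its CRE libraries 205 to 596 CPM (median 484), and 7 of 11 CRE libraries lay below every RFP library. This gave a log2 fold change of -0.72 (standard error 0.15, 95% interval -1.03 to -0.42, edgeR adjusted p = 0.00048). Unlike *Syn1*, *Syn2* kept its call with all 23 libraries.

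*Syn3*, a synapsin that is mostly associated with developing neurons, is encoded on chromosome 10 (85884617 to 86334773, minus strand, ENSMUSG00000059602) and was the rarest of the 10. RFP libraries held 5.76 to 13.04 CPM (median 8.59) and CRE libraries 2.41 to 9.40 CPM (median 3.90), with 7 of 11 CRE libraries below every RFP library. Its log2 fold change of -0.93 carried a wider error (standard error 0.24, 95% interval -1.42 to -0.45, edgeR adjusted p = 0.00367). The highest CRE value was that of CRE 1-3, and without the 4 libraries the log2 fold change was -1.02 (edgeR adjusted p = 0.000883).

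In the physin family both genes were called lower. *Syp* (chromosome X, 7504710 to 7519499, plus strand, ENSMUSG00000031144) ranged from 516 to 787 CPM (median 593) in RFP and from 305 to 627 CPM (median 444) in CRE libraries. All CRE libraries except CRE 1-3 lay below every RFP library. The log2 fold change was -0.47 (standard error 0.11, 95% interval -0.71 to -0.24, edgeR adjusted p = 0.0025), and with all 23 libraries, where CRE 3-3 stood at 832 CPM, it was -0.34 (edgeR adjusted p = 0.0616).

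*Synpr*, which encodes synaptoporin, a relative of synaptophysin that is rich in mossy fibre terminals, lies on chromosome 14 (8853423 to 9184986, minus strand, ENSMUSG00000056296). It was found at 45.7 to 108 CPM (median 68.5) in RFP libraries and at 24.4 to 74.0 CPM (median 46.4) in CRE libraries. Overlap was broad, with 5 of 11 CRE libraries below every RFP library. *Synpr* had a log2 fold change of -0.55 (standard error 0.18, 95% interval -0.92 to -0.18, edgeR adjusted p = 0.0213). The call was lost without RFP 2-2, the highest library (log2 fold change -0.48, edgeR adjusted p = 0.0508), and with the trend of each library with GC content removed (-0.28, edgeR adjusted p = 0.373). At 39.7%, *Synpr* had the lowest GC content of the 10 genes, which reached 56.8% in *Syngr3*.

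The synaptogyrins differed from each other. *Syngr1* (chromosome 15, 79975353 to 80005062, plus strand, ENSMUSG00000022415), the broadly expressed neuronal member, was at 528 to 830 CPM (median 639) in RFP and at 401 to 714 CPM (median 502) in CRE libraries. With 8 of 11 CRE libraries below every RFP library, it had the smallest change among the called genes, a log2 fold change of -0.33 (standard error 0.11, 95% interval -0.55 to -0.10, edgeR adjusted p = 0.0284). Leaving out RFP 2-4, its highest library, gave -0.26 (edgeR adjusted p = 0.0774), all 23 libraries gave -0.28 (edgeR adjusted p = 0.0513), and the 4 libraries left out together gave -0.33 (edgeR adjusted p = 0.00213).

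*Syngr3* (chromosome 17, 24904063 to 24909172, minus strand, ENSMUSG00000007021), whose product binds the dopamine transporter, was at 251 to 326 CPM (median 275) in RFP and 205 to 455 CPM (median 262) in CRE libraries. Of the 11 CRE values, 3 were under the RFP range and 1 was over it. The value over it was that of CRE 1-3, a library whose gene levels rose with GC content. The log2 fold change of -0.05 (95% interval -0.28 to 0.18, edgeR adjusted p = 0.802) did not pass the test. Its sign turned with all 23 libraries (0.07) and with scaling to total counts (0.04). Leaving out CRE 1-3 gave -0.14 (edgeR adjusted p = 0.141), which was not called either.

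The SV2 family held both the largest fall and the single rise. *Sv2a* (chromosome 3, 96088467 to 96106005, plus strand, ENSMUSG00000038486), the family member found at most synapses, was at 386 to 582 CPM (median 509.8) in RFP and at 332 to 605 CPM (median 458) in CRE libraries. The CRE range spanned that of RFP, and 10 of 11 CRE libraries lay below the RFP median. The log2 fold change of -0.17 (95% interval -0.37 to 0.03, edgeR adjusted p = 0.207) was not called. Without CRE 2-3, the highest CRE library, it was -0.25 (edgeR adjusted p = 0.0497).

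*Sv2b* (chromosome 7, 74761975 to 74959131, minus strand, ENSMUSG00000053025), which is found mainly in glutamatergic neurons of the forebrain, was at 281 to 457 CPM (median 387) in RFP and at 79.2 to 292 CPM (median 193) in CRE libraries. All CRE libraries except CRE 2-4 lay below the RFP range. With a log2 fold change of -1.06 (standard error 0.16, 95% interval -1.39 to -0.73, edgeR adjusted p = 1.55e-05), levels changed by -52.1%, and 4.17% of all genes tested had a lower fold change. The lowest value belonged to CRE 1-3, and without the 4 libraries the log2 fold change was -0.99 (edgeR adjusted p = 1.32e-06).

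*Sv2c* (chromosome 13, 96091102 to 96269085, minus strand, ENSMUSG00000051111), the SV2 gene of basal ganglia and evolutionarily older brain regions, went the other way. RFP libraries had 10.3 to 52.4 CPM (median 40.4) and CRE libraries 21.5 to 76.7 CPM (median 58.9), and 8 of the 11 CRE values exceeded all RFP values. The log2 fold change was 0.66 (standard error 0.24, 95% interval 0.18 to 1.15, edgeR adjusted p = 0.0339). The lowest CRE value was that of CRE 1-3, and without the 4 libraries the log2 fold change was 0.77 (edgeR adjusted p = 0.0135). This call was fragile, since it was lost when any 1 of 10 libraries was left out (CRE 1-1, 1-2, 1-4, 2-1, 2-2, 2-3, 3-2 and 3-4, RFP 3-1 and 3-3), with log2 fold changes between 0.58 and 0.64 and edgeR adjusted p between 0.0506 and 0.0731. It was also lost when counts were summed per culture (0.70, edgeR adjusted p = 0.255).

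The 250 bases before the canonical start are shown for the 3 SV2 genes, because they share a family but were not called, lower and higher. They are from GRCm39, 5′ to 3′ on the strand of the gene, with capitals for matches to the motifs searched other than the E-box, which here are Sp1 motifs read on the opposite strand.
Sv2a chr3:96088217-96088466 (plus): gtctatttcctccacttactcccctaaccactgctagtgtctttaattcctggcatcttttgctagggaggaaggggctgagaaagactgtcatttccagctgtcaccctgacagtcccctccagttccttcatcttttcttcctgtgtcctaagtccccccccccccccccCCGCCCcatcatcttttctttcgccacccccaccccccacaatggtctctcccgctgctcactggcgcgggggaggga
Sv2b chr7:74959132-74959381 (minus): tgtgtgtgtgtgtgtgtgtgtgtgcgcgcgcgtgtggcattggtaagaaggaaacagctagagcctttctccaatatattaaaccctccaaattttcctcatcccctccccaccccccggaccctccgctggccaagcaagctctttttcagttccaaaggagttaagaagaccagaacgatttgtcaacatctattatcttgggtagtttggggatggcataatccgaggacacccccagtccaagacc
Sv2c chr13:96269086-96269335 (minus): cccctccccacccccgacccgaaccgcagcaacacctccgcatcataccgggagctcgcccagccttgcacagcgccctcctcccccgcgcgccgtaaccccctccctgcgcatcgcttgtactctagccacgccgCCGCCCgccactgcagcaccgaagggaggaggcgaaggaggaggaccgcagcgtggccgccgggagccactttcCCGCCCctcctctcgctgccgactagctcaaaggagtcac

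*Sv2a* held 1 Sp1 motif, 73 to 78 bases before the start, *Sv2b* held none, and *Sv2c* held 2, at 109 to 114 and 35 to 40 bases. Of the 10 promoters 5 held the Sp1 letters GGGCGG on either strand (*Syn1*, *Syn3*, *Synpr*, *Sv2a* and *Sv2c*), against 36.4% of 21667 promoters of protein-coding genes with the same length. The NRF1 core GCATGCGC was found in *Syn1* alone, at 2 to 11 bases before the start, and in 2.66% of all promoters. The RE1 element, to which REST binds, was searched in its left and right parts, and the right part GGACAG was in *Syngr1* alone and in 19.3% of all, and the E-box CANNTG in 6 of 10 and in 64.8% of all. The cAMP response element TGACGTCA (1.68% of all), the EGR motif GCGTGGGCG (0.545%) and the RE1 left part TTCAGCACC (0.268%) were in 0 of the 10 windows. These letters describe the windows and no binding, and bases after the start were not searched.

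**Figure D2:**
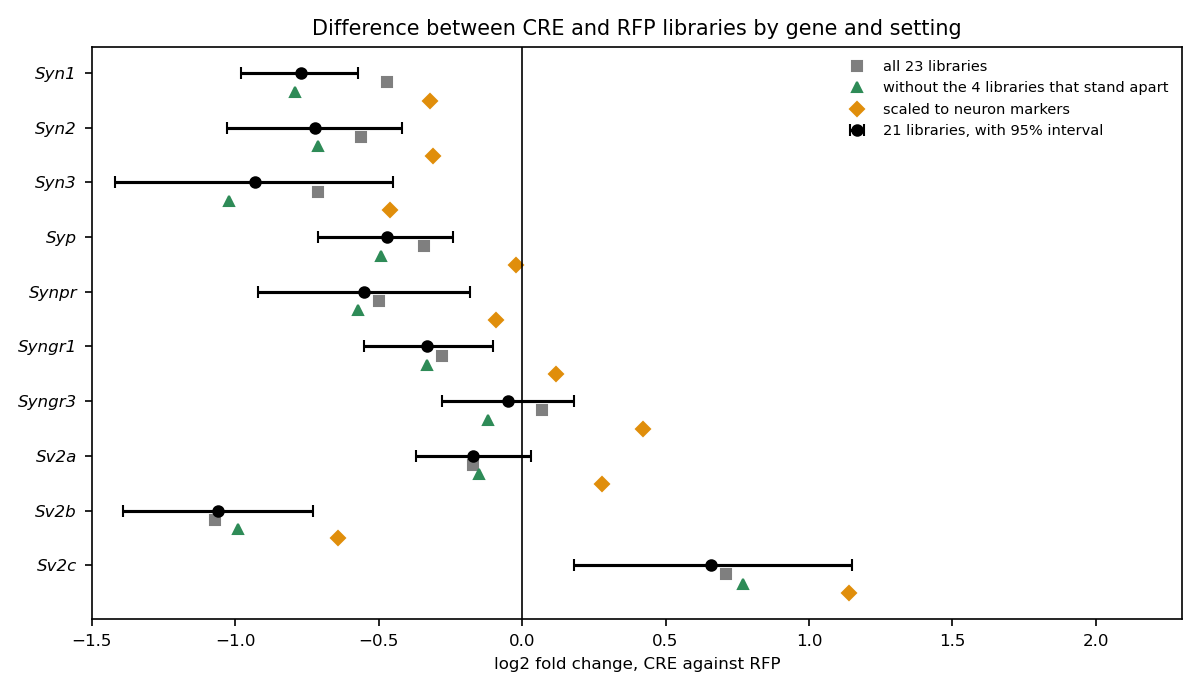
Log2 fold change of CRE against RFP libraries (horizontal axis) for each gene (rows), with the 95% interval of the comparison over 21 libraries (black) and the values with all 23 libraries (grey squares), without the 4 libraries that stand apart (green triangles) and with library sizes set by neuron markers (orange diamonds). Only the grey square of *Syn1* moves outside the black interval to -0.47 among the squares and triangles, and every orange diamond lies to the right of its black point.

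The calls of *Syn1*, *Syp* and *Syngr1* were lost when CRE 3-3 and RFP 3-2 were added. With all 23 libraries, 4 of the 10 genes were called lower (*Syn2*, *Syn3*, *Synpr* and *Sv2b*) and 1 higher (*Sv2c*), where 11.8% and 16.4% of 14382 genes were called. When the trend with GC content was removed from each of the 23 libraries, an alternative chosen after seeing the data, *Syn1* (-0.66, edgeR adjusted p = 0.000111), *Syp* (-0.38, edgeR adjusted p = 0.0222) and *Syngr1* (-0.40, edgeR adjusted p = 0.000317) were called lower, as were *Syn2*, *Sv2a* and *Sv2b*, and *Syn3* (-0.61, edgeR adjusted p = 0.127) and *Synpr* (-0.08, edgeR adjusted p = 0.83) were not. In that fit 16.1% of all genes were called lower and 19% higher. Without the 4 libraries that stand apart, all 8 genes kept their calls, where 18.7% of 14666 genes were called lower and 19.4% higher. CRE 3-3, with the fewest counts, had the highest CRE value of *Syn1*, *Syn2*, *Syn3*, *Syp* and *Syngr3* and, with CRE 1-3, the lowest of *Sv2b*.

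Markers of neurons differed between the groups in their sum, which is weighted towards the abundant ones. The summed level of 12 neuron markers was 6415 to 7567 CPM (median 6794) in RFP and 4008 to 6306 CPM (median 5204) in CRE libraries, with no overlap. Of these 12, 6 were not called, 5 were lower, among them *Rbfox3*, *Stmn2* and *Dcx*, and 1, *Nefm*, was higher. When library sizes were set by these markers, the median log2 fold change of all genes moved to 0.49, with 4.1% called lower and 48.3% higher, and *Syn1* (-0.32, edgeR adjusted p = 0.0187), *Syn2* (-0.31, edgeR adjusted p = 0.025) and *Sv2b* (-0.64, edgeR adjusted p = 0.000335) were still called lower. On this scale *Syngr3* (0.42, edgeR adjusted p = 0.0101), *Sv2a* (0.28, edgeR adjusted p = 0.0289) and *Sv2c* (1.14, edgeR adjusted p = 0.000431) were called higher, and *Syp* (-0.02), *Synpr* (-0.09), *Syn3* (-0.46) and *Syngr1* (0.12) were not called.

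Of 8 markers of glutamatergic neurons, 5 were lower (*Camk2a*, *Neurod6* and *Slc17a7* first) and *Slc17a6* was higher, with summed levels of 2560 to 4593 CPM in RFP and 989 to 1640 CPM in CRE libraries. GABA neuron markers went both ways, 2 of 11 lower and 3 higher, with overlapping sums (2148 to 3456 CPM in RFP and 1531 to 2861 CPM in CRE libraries). Dentate granule cell markers were lower in 3 of 5 (178 to 358 CPM in RFP, 95.6 to 296 CPM in CRE libraries), astrocyte markers lower in 3 and higher in 2 of 8 (3086 to 6301 CPM, 1408 to 4453 CPM), and oligodendrocyte lineage markers lower in 5 of 8 (647 to 1867 CPM, 425 to 1910 CPM). Endothelial and mesenchymal markers (1 lower and 1 higher of 7 tested) summed to 17.6 to 145 CPM in RFP and 16.4 to 381 CPM in CRE libraries. Microglial markers (0 lower and 1 higher of 2 tested) summed to 1.09 to 6.56 CPM in RFP and 0.26 to 7.70 CPM in CRE libraries. The 1 higher was *Tmem119* (RFP 0.19 and CRE 1.82 CPM on average, log2 fold change 3.21, edgeR adjusted p = 0.000517). *Cx3cr1*, at 0 counts in each CRE library, averaged 0.11 CPM in RFP libraries and was not tested. Without the 4 libraries that stand apart, 6 of the 12 neuron markers were lower and 0 higher, where 18.7% of all genes were lower and 19.4% higher. GABA neuron markers were then lower in 3 and higher in 1 of 11. Glutamatergic markers were lower in 6 and higher in 1 of 8, and oligodendrocyte lineage markers lower in 6 of 8. The part of these marker shifts in the values of the 10 genes was not tested beyond the scaling to neuron markers.

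Within each of the 3 culture numbers, *Syn1*, *Syn2* and *Sv2b* had every CRE library below every RFP library of that culture, as did 3.24% of all genes. With all 23 libraries this held for 1 of the 10, *Sv2b* (2.16% of 14382 genes). None of the 10 had every CRE library above every RFP library in each culture, with 21 libraries (4.06% of all genes) or with 23 (2.93%). With the 23, the CRE libraries of culture 3 reached 1256 CPM for *Syn1* and 853 CPM for *Syn2*, above every RFP library of that culture. Over the 21 libraries, log2 fold changes per culture lay between -0.89 and -0.60 for *Syn1*, between -0.84 and -0.63 for *Syn2* and between -1.35 and -0.87 for *Sv2b*. The other called genes that fell also had a negative log2 fold change in each culture, from -1.15 to -0.48 for *Syn3*, from -0.58 to -0.26 for *Syp*, from -0.91 to -0.38 for *Synpr* and from -0.43 to -0.20 for *Syngr1*. *Sv2a* was between -0.21 and -0.11, and *Syngr3* between -0.17 and 0.03. A negative value in each culture was found for 26.4% of all genes and a positive one for 29.4%. With all 23 libraries the log2 fold change in culture 3 was above 0 for *Syn1* (0.13), *Syn3* (0.02), *Syp* (0.02) and *Syngr3* (0.30), while *Syn2*, *Synpr*, *Syngr1*, *Sv2a* and *Sv2b* were negative in each culture (24.8% of all genes) and *Sv2c* was positive in each (29.3%). With culture 2 left out, where 5.45% of all genes were called lower and 8.89% higher, *Syn1*, *Syn2* and *Sv2b* were still called lower, and the other 5 calls were lost (edgeR adjusted p between 0.0971 and 0.349).

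*Sv2c* had its widest gap in culture 3. There the RFP libraries had 10.3 to 21.2 CPM (15.9 ± 5.44, SD, n = 3) and the CRE libraries 50.7 to 67.3 CPM (58.9 ± 8.29, SD, n = 3), a log2 fold change of 1.88 (standard error 0.34). In cultures 1 and 2 the RFP libraries had 45.1 ± 7.46 (SD, n = 3) and 43.7 ± 4.12 CPM (SD, n = 4), and the CRE libraries 56.0 ± 25.1 and 58.0 ± 10.6 CPM (SD, n = 4 each), log2 fold changes of 0.28 and 0.39. The CRE means were close in the 3 cultures, and the RFP libraries of culture 3 stood lower than those of the other 2. RFP 3-2, left out of the comparison, had 11.5 CPM as well, and CRE 3-3 had 25.2 CPM.

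A model with culture, virus and their interaction asked whether the difference itself depended on the culture number. It takes CRE and RFP libraries of 1 number as 1 culture, which is not stated for them. Over the 21 libraries edgeR called 0 of the 10 genes and 0.0069% of all genes, while 1 of the 10, *Sv2c* (p = 0.00305, edgeR adjusted p = 0.861), and 595 of all genes had an unadjusted p under 0.05 in edgeR. Without the 4 libraries that stand apart, 0.245% of 14666 genes were called, and *Sv2c* was 1 of them (edgeR adjusted p = 0.038), with log2 fold changes of 0.55, 0.35 and 1.88 in cultures 1, 2 and 3. With culture 3 left out, the log2 fold change of *Sv2c* over the other cultures was 0.32 (edgeR adjusted p = 0.281).

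**Figure D3:**
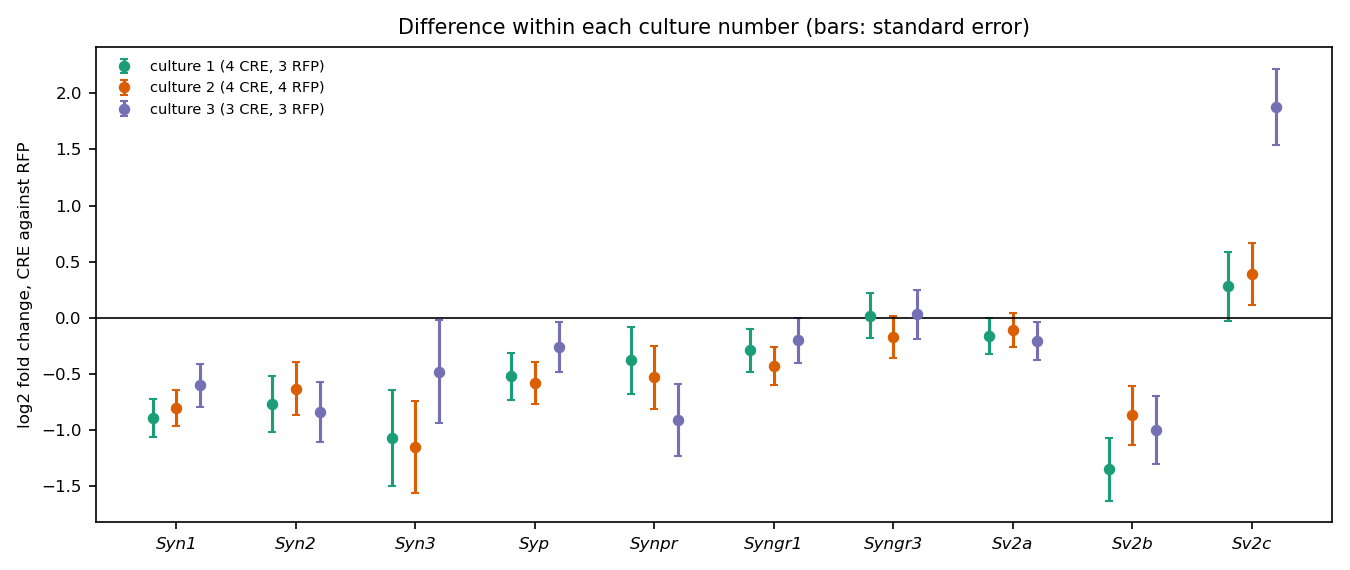
Log2 fold change of CRE against RFP libraries (vertical axis, bars for the standard error) for each gene within culture 1 (green), 2 (orange) and 3 (purple), over the 21 libraries. All genes but *Syngr3* and *Sv2c* lie below 0 in each culture, and the point of *Sv2c* in culture 3 stands alone at 1.88.

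Ratios of 2 genes of 1 family within a library do not depend on the scaling between libraries, and 6 were tested by permutation (two-sided, 100000 resamples). The units permuted were libraries, which are repeats within 3 replicates. The p-values thus measure the spread between libraries, which may be technical, and no ratio was tested between replicates. The log2 ratio of *Sv2b* to *Sv2a*, in counts per kilobase of exon, averaged -1.04 ± 0.30 with the RFP virus (SD, n = 10) and -1.99 ± 0.56 with the CRE virus (SD, n = 11), which is lower by a log2 difference of -0.95 (permutation p = 0.00014, adjusted over 6 ratios 0.00084). *Sv2c* to *Sv2a* moved by about the same amount in the other direction, from -4.01 ± 0.88 (SD, n = 10) to -3.07 ± 0.56 (SD, n = 11), a difference of 0.94 (permutation p = 0.0079, adjusted 0.0158). This second shift was 0.42 without culture 3 (exact permutation p adjusted over the ratios 0.244). As a share of the summed SV2 counts per kilobase, *Sv2a* took 64.2% ± 5.32 with the RFP virus (SD, n = 10) and 72.2% ± 6.08 with the CRE virus (SD, n = 11), *Sv2b* 31.4% ± 3.93 and 18.9% ± 5.25, and *Sv2c* 4.43% ± 1.80 and 8.94% ± 2.57.

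*Syngr3* gained on *Syngr1*, with log2 ratios of 0.56 ± 0.15 for the RFP virus (SD, n = 10) and 0.82 ± 0.17 for the CRE virus (SD, n = 11) (difference 0.26, permutation p = 0.00192, adjusted 0.00576), and 5 of the 11 CRE values exceeded all RFP values. With labels permuted within cultures, again with libraries as the units, the p-values of these 3 ratios were 2e-05 (*Sv2b* to *Sv2a*), 0.00612 (*Sv2c* to *Sv2a*) and 0.00052 (*Syngr3* to *Syngr1*). Among the synapsins no shift passed the test. *Syn2* to *Syn1* averaged -1.19 in both groups (difference 0.00, permutation p = 0.987), but spread more in CRE (SD 0.51, n = 11) than in RFP libraries (SD 0.17, n = 10). *Syn3* to *Syn1* differed by -0.23 (permutation p = 0.235) and *Synpr* to *Syp* by -0.09 (permutation p = 0.759). *Syn1* thus took 69.4% ± 2.52 of the summed synapsin counts per kilobase of merged exons with the RFP virus (SD, n = 10) and 68.9% ± 6.86 with the CRE virus (SD, n = 11), while its own level fell.

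**Figure D4:**
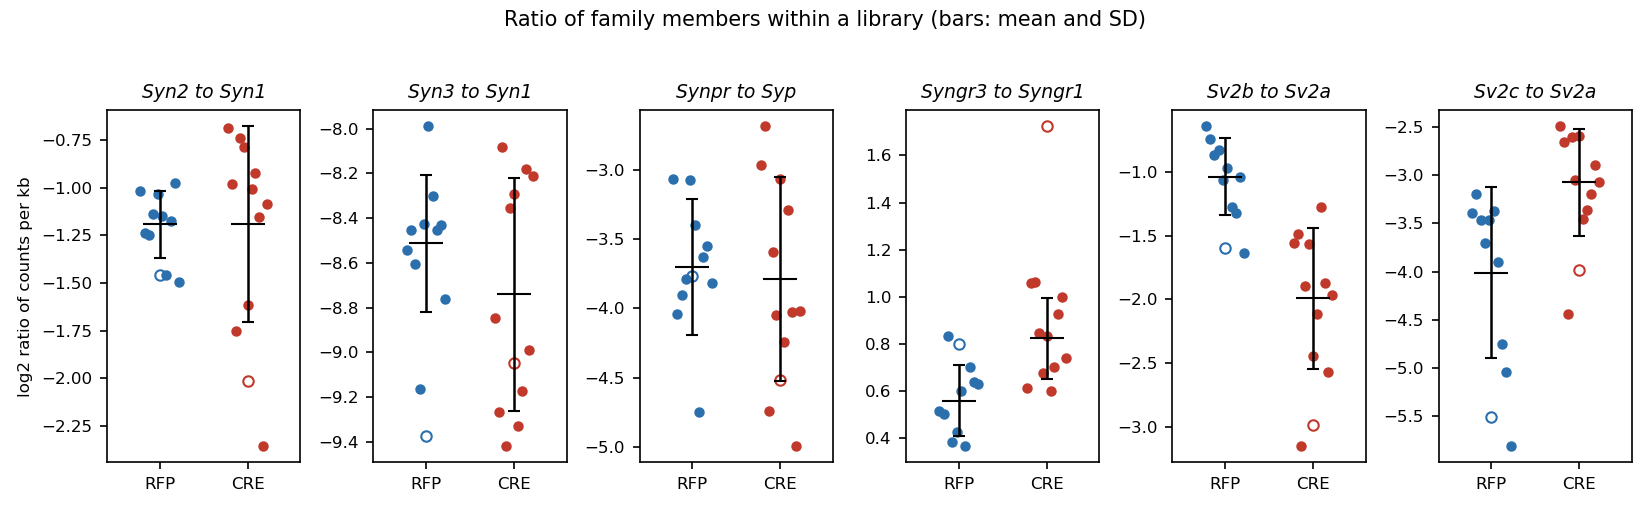
Log2 ratio of counts per kilobase of exon (vertical axes, each with its own range) for 6 gene pairs within each RFP (blue) and CRE (red) library, with mean and SD of the compared libraries as black bars and the 2 left out libraries as open circles. The red points of *Sv2b* to *Sv2a* lie lower by 0.95 on average and those of *Sv2c* to *Sv2a* higher by 0.94, whereas *Syn2* to *Syn1* has the same mean in both groups.

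Per kilobase of merged exons, RFP libraries had the order *Syn1* (151 ± 17.2 CPM per kb, SD, n = 10), *Syngr3* (116 ± 10.1), *Syp* (99.1 ± 12.6), *Syngr1* (79.3 ± 11.2), *Syn2* (66.2 ± 7.40), *Sv2a* (53.5 ± 5.97), *Sv2b* (26.2 ± 3.34), *Synpr* (7.81 ± 2.13), *Sv2c* (3.69 ± 1.504) and *Syn3* (0.42 ± 0.11). Ranges of neighbours in this order overlapped for 6 of 9 pairs, all but *Sv2a* and *Sv2b*, *Sv2b* and *Synpr*, and *Sv2c* and *Syn3*. CRE libraries differed in 3 places. At the top, *Syngr3* (114 ± 26.9 CPM per kb, SD, n = 11) stood above *Syn1* (89.6 ± 13.6) in 11 of 11 libraries, while *Syn1* stood above *Syngr3* in 10 of 10 RFP libraries. Lower down, *Sv2a* (48.2 ± 7.04) stood above *Syn2* (40.7 ± 11.4) in 7 of 11 CRE libraries and *Sv2c* (5.93 ± 1.59) above *Synpr* (5.404 ± 1.76) in 7 of 11, both against the order in RFP libraries. Ranges of neighbours overlapped for all CRE pairs but *Synpr* and *Syn3*. The order depends on the exon length used, and *Syn2* stood above *Sv2a* and *Synpr* above *Sv2c* in both groups with that of the canonical transcript. Per kilobase of the canonical transcript, *Syp* (232 CPM per kb in RFP, 169 in CRE libraries) and *Syn2* (222 and 136) came first, and *Syn1* again stood above *Syngr3* in RFP (183 and 127) and below it in CRE libraries (108 and 125).

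Genes that varied most like each of the 10 were taken from 11500 genes with a mean of at least 5 CPM, by Pearson correlation of log2 CPM over the 21 libraries after the mean of each virus group was subtracted. These values are a description, and the points share the GC trends of CRE 1-3 and RFP 2-4. *Syp* (0.91), *Stmn4* (0.89) and *Kctd13* (0.89) were nearest to *Syn1*, and *Stmn4* (0.95), *Gpr162* (0.93) and *Syn1* (0.91) to *Syp*. *Calm3* (0.93), *Kif5a* (0.91) and *Scamp5* (0.89) were nearest to *Syngr1*, and *Adrm1* (0.92), *Trio* (0.92) and *Mbd3* (0.91) to *Syngr3*. *Gnaq* (0.90) was among the nearest to *Sv2b*, and *Hs3st4* (0.93), *Syt11* (0.92) and *Caln1* (0.90) were nearest to *Syn2*. The values were lower for *Syn3* (*Anapc5* 0.85, *Abcg4* 0.81, *Shd* 0.78), *Synpr* (*Fech* 0.85, *Sar1b* 0.84, *Itga6* 0.82), *Sv2a* (*Adcy1* 0.84, *Tmsb10* 0.78, *Apba1* 0.77) and *Sv2c* (*Gcnt2* 0.80, *Htr2a* 0.78, *Sdf4* 0.78).

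Within the 10 genes, 2 sets appeared in these correlations. *Syn1*, *Syp*, *Syngr1* and *Syngr3* each had their highest CRE value in CRE 1-3 and their highest RFP value in RFP 2-4. Correlations without these libraries are not given here. *Syn1*, *Syp*, *Syngr1* and *Syngr3* varied together (0.72 to 0.91 between pairs), and *Sv2b* varied with *Syn2* (0.71) but not with *Syn1* (-0.12), *Syp* (-0.14) or *Syngr1* (-0.07). *Synpr* ran against *Syn1* (-0.56), *Syp* (-0.62) and *Sv2a* (-0.64). GC content was 50.6% to 56.8% in *Syn1*, *Syp*, *Syngr1* and *Syngr3*, 45.0% in *Sv2b*, 48.3% in *Syn2* and 39.7% in *Synpr*. It was 52.9% in *Sv2a*, 48.0% in *Sv2c* and 47.1% in *Syn3*. With *Syn1*, *Syp*, *Syngr1* and *Syngr3*, the correlations of *Sv2a* were 0.23 to 0.54 and those of *Syn3* 0.42 to 0.58. The part of GC content in these correlations was not tested.

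Among 33 tested of 35 other synaptic vesicle genes, 11 were lower and 4 higher, with a median log2 fold change of -0.21. Over all genes, 13.8% were lower and 16.4% higher. Without the 4 libraries that stand apart, 17 of the 33 were lower and 3 higher (18.7% and 19.4% of all genes). Among the lowest p were those of *Slc17a7* (VGLUT1, log2 fold change -1.88, edgeR adjusted p = 1.23e-08) and *Atp6v1g2* (a neuronal subunit of the proton pump, -0.77, edgeR adjusted p = 1.01e-06) in one direction. In the other stood *Syt2* (a fast calcium sensor, 1.65, edgeR adjusted p = 8.41e-05), *Slc17a6* (VGLUT2, 1.45, edgeR adjusted p = 0.000104) and *Vamp1* (0.79, edgeR adjusted p = 0.000241). *Slc17a7* with *Slc17a6* is a pair of 1 family with opposite directions, like *Sv2b* with *Sv2c*. The call of *Sv2c*, however, was lost when counts were summed per culture (edgeR adjusted p = 0.255).

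Kinases and phosphatases known to act on synapsins were lower in 8 of 14, with *Camk2a* (-1.99, edgeR adjusted p = 8.04e-10), *Ppp3cb* (-0.96, edgeR adjusted p = 3.44e-05) and *Ppp3ca* (-0.81, edgeR adjusted p = 9.06e-05) first and a median of -0.44, and the other 6 were not called. Without the 4 libraries that stand apart, 12 of the 14 were lower and 0 higher. Of all genes, 18.7% were then lower and 19.4% higher, against 13.8% and 16.4% over the 21 libraries. *Camk2a* encodes a subunit of the kinase that releases synapsin 1 from vesicles, and the Ppp3 genes encode catalytic subunits of calcineurin. Of 5 factors known to bind the *Syn1* promoter or to act with such factors, *Rest*, the repressor of neuronal genes, was higher (RFP 13.8 ± 3.35 CPM, SD, n = 10, and CRE 24.4 ± 6.09 CPM, SD, n = 11, log2 fold change 0.80, edgeR adjusted p = 0.000512), and *Rcor1*, *Sin3a*, *Egr1* and *Sp1* were not called (0.23, 0.30, -0.29 and 0.34). Without the 4 libraries that stand apart, 3 of the 5 factors were higher and 0 lower (19.4% and 18.7% of all genes).

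Relatives outside the 10 genes were scarce or not called. *Syngr2*, the synaptogyrin of non-neuronal cells, was higher (RFP 7.84 ± 2.61 CPM, SD, n = 10, and CRE 12.99 ± 6.10 CPM, SD, n = 11, log2 fold change 0.70, edgeR adjusted p = 0.0317). *Sypl1* (0.06), *Sypl2* (-0.01) and the SV2 relative *Svop* (-0.26) were not called, and *Syngr4* and *Svopl* did not pass the filter on low counts. Without the 4 libraries that stand apart, 1 of the 4 relatives tested was lower and 1 higher (18.7% and 19.4% of all genes).

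Several of the 10 genes share exon sequence with genes on the opposite strand, and the sources used here do not state the strand setting of the counting, so that these reads cannot be told apart. Genes for inhibitors of matrix proteases lie within the spans of the synapsin genes. Exons of *Timp4* overlap 10.1% of the merged exons of *Syn2*, those of *Timp3* 8.11% and of *Fbxo7* 14.6% of *Syn3*, and *Timp1* lies inside *Syn1* with 0 bases of exon overlap. *Timp1* was higher (RFP 0.30 ± 0.38 CPM, SD, n = 10, and CRE 2.297 ± 2.504 CPM, SD, n = 11, log2 fold change 2.88, edgeR adjusted p = 0.00325), while *Timp3* (-0.01), *Timp4* (-0.43) and *Araf* (-0.21), which meets the end of *Syn1* over 23 bases, were not called. Without the 4 libraries that stand apart, 1 of these 4 genes was lower and 1 higher (18.7% and 19.4% of all genes). The noncoding gene *Gm14703* overlaps 17.1% of *Syp* and *Bola1* 9.24% of *Sv2a*. Stretches of 50 bases that also occur in other genes, on either strand, made up 23.9% of *Syn3*, 17.9% of *Syp*, 12.3% of *Syn2* and 9.03% of *Sv2a*, and at most 3.41% of the others.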

How the data were processed

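Primary hippocampal cultures of NEDD8cKO mice were measured by RNA sequencing in 23 libraries. The authors prepared libraries with Illumina Stranded mRNA Prep, demultiplexed with bcl2fastq 2.20.0.422, aligned reads with STAR 2.7.8a to GRCm39 and Ensembl 110 (at most 2 mismatches within 50 bases), and counted them with featureCounts 1.5.0-p1, with versions taken from the submitters' processing notes. The strand setting and the handling of multimapping reads are not given in the sources used here. The authors deposited raw counts per gene and library. The 10 genes, the other lists and the tests were chosen with earlier results of these data known.

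Identifiers were named with GENCODE M39, which matched 56323 of 56941 identifiers and 99.95% of counts. Counts were filtered (filterByExpr), scaled (TMM) and tested with edgeR 4.0.16 in R 4.3.3 (robust glmQLFit, glmQLFTest), with Benjamini-Hochberg adjustment over all genes. The method was tested on simulated data. CPM values used TMM factors over the 23 libraries. Group and replicate came from the sample labels, and the number before the hyphen was read as the culture. Neither labels nor methods state that libraries are separate cultures or animals. For this sequencing the paper gives N = 3, with N as animals or biological replicates. The libraries are thus repeats within 3 replicates, and p-values over libraries measure the spread between libraries, which may be technical. Methods names CRE 1-3 and CRE 3-3 as removed, whereas the count table of the study leaves out CRE 3-3 and RFP 3-2, and the latter choice was followed here. Named were the 10 genes, their relatives, the genes nested in or next to synapsin genes, the 3 genes with the smallest p in each direction among called genes of each other list, *Nedd8*, and the 3 genes most like each of the 10. Genes that this rule takes but that are missing from the text are not reported here. *Rn18s-rs5*, *Cx3cr1* and the genes whose exons overlap those of the 10, were named after values were seen.

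Alternatives were all 23 libraries, other sets of libraries, DESeq2 1.42.0, limma-voom (limma 3.58.1), other scalings, no filter, blocks, sums per culture, removal of the GC trend, thresholds of 1.3 on the log2 fold change with 6 on -log10 of the p or of the adjusted p, and leaving out each library and culture. Removal of the GC trend over all 23 libraries and the threshold on the p without adjustment were chosen after seeing the data. Ratios were tested in scipy 1.17.1. Promoters are 250 bases of GRCm39 before the start of the Ensembl canonical transcript, and motifs were searched on both strands by exact letters.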

Additional observations from a re-analysis of the deposited data

Results flagged for a closer look

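A library far from the others was looked for in the 10 RFP libraries of each of the 10 genes, where chance alone marks about 1 in 20 groups. It was found for 2 genes, both in RFP 2-4. The CRE libraries were not searched in this way. Among the compared CRE libraries, *Syngr3* was at 455 CPM in CRE 1-3, with the next highest, CRE 3-2, at 292 CPM. *Syp* was at 787 CPM in RFP 2-4, with the next highest RFP library at 641 CPM, and *Syngr1* was at 830 CPM, with the next at 672 CPM. RFP 2-4 is 1 of the libraries whose gene levels rose with GC content (Spearman correlation 0.42), and the part of this trend in the values was not tested. Without RFP 2-4, *Syngr1* lost its call (log2 fold change -0.26, edgeR adjusted p = 0.0774).

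The log2 fold change of *Sv2c* varied with the culture number when the 4 libraries that stand apart were left out (edgeR interaction test, adjusted p = 0.038). The test sets CRE libraries against RFP libraries of the same number, and no source states that these share a culture. Over the 21 libraries the same test gave an adjusted p of 0.861. The log2 fold change was 1.88 in culture 3 in both fits. Whether the variation between numbers belongs to the cultures as such or to the few RFP libraries of culture 3 cannot be told apart, since these libraries are the culture.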

How the results depend on the processing

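Among the alternatives, 21 of which left out a single library and so shared most of the data, 36 of 41 left the number of genes called lower within 1.5 times of 7. It was 4 with all 23 libraries, 3 with library sizes set by neuron markers, 3 without culture 2 (where calls over all genes fell from 1996 to 803 lower) and 0 past an absolute log2 fold change of 1.3 with a -log10 p, adjusted or not, above 6. Leaving out 1 library gave 6 to 8, and leaving out 1 culture 3 to 7. The number called higher was 3 with sizes set by neuron markers, 0 with sums per culture, 0 past either threshold, and 0 to 1 when a library or a culture was left out. Setting sizes by neuron markers turned all genes from 1996 lower and 2374 higher to 594 and 6999, and total counts to 1533 and 2949. *Syn1*, *Syn2*, *Syn3*, *Syp*, *Synpr* and *Sv2b* had a negative log2 fold change in each of 39 alternatives, with *Syp* (-0.02) and *Synpr* (-0.08) reaching close to no change. Directions that turned were *Syngr1* with neuron markers (0.12), *Sv2a* with neuron markers (0.28), and *Syngr3* with all 23 libraries (0.07), total counts (0.04), neuron markers (0.42) and without culture 2 (0.05), where leaving out a library or culture gave -0.14 to 0.05. The ratio of *Syn2* to *Syn1* differed by -0.04 with all 23 libraries and by -0.07 to 0.12 with a culture left out, that of *Synpr* to *Syp* by -0.24 to 0.14, and that of *Sv2c* to *Sv2a* by 1.22 without culture 2 (adjusted p = 0.0723, permutation test) and 0.42 without culture 3. The number of genes called in the interaction test was 0 with 21 libraries and 1 without the 4 libraries. Same-numbered cultures did not deviate together (correlations 0.037, -0.017 and 0.162), so the numbers were not taken to pair libraries. With culture as a replicate block 7 genes were called lower and 1 higher, and with the library number as a replicate block 7 and 0 (*Sv2c* 0.64, edgeR adjusted p = 0.0558). The causes of these changes were not tested. *Syn3*, with 2.41 to 13.04 CPM, rested on the lowest counts.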
